A study of Rattus norvegicus with 12 samples.

Results

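The miRNAs described here are those of 5 hairpins that are read mainly in blood cells and in microglia: miR-451 and miR-144 of red blood cells, and miR-142, miR-223 and miR-150 of white blood cells. They were chosen by name, as every listed arm of these hairpins and of miR-486, another red-cell miRNA. That gave 10 mature miRNAs of the 753 in the hippocampal count lists, 4 from the red-cell and 6 from the white-cell hairpins; the lists hold 0 rows named miR-486, which was not analysed here. Small RNA (20 to 30 nt) was sequenced from the right hippocampus of adult male Sprague Dawley rats aged P70 to P80, euthanized 3 h after an intraperitoneal injection. The study describes the tissue as dorsal hippocampus. The comparison asked whether a single high dose of ethanol changed the hippocampal miRNA profile within these hours. The ethanol group (8 libraries, rats 3, 4, 7, 8, 15, 16, 23 and 24) received 4 g/kg ethanol diluted in saline, and the vehicle group (4 libraries, rats 9, 10, 19 and 20) received vehicle at the same interval. The study describes 8 rats per group, and the remaining vehicle rats were not analysed here. Each library came from the tissue of 1 rat, and no strain, allele or drug other than ethanol separated the groups. The methods describe rapid decapitation and freezing of the brain and do not mention perfusion, and how much blood stayed in the tissue was not measured. In bulk tissue such as this, fewer cells of a type and less RNA per cell cannot be told apart.

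Each of these miRNAs is known from a blood lineage. The genes of miR-144 and miR-451 lie next to each other, are transcribed together in developing red cells under the factor GATA1, and their products accumulate in mature erythrocytes; miR-451 is an exception among miRNAs because its hairpin is cut by the Argonaute protein Ago2 and not by Dicer. miR-142 is made in nearly all blood-forming lineages, including microglia, the resident macrophages of the brain. miR-223 is abundant in neutrophils and monocytes, where it restrains myeloid activation, and miR-150 is abundant in mature lymphocytes, where it represses the transcription factor Myb.

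The mature sequences are shown because the members are compared below as arms of 1 hairpin and as products of neighbouring hairpins, and so that their seeds can be read side by side. Capitals mark the seed, bases 2 to 8 from the 5′ end, which sets target pairing. Sequences are from RefSeq on the rat assembly GRCr8, all from the plus strand, and 8 of the 10 members matched; the arms of miR-150 had no entry. The red-cell miRNAs are:
rno-miR-451-5p: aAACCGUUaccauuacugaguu
rno-miR-451-3p: aUGGUAAUgguucucuugcugcu
rno-miR-144-3p: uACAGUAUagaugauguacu
rno-miR-144-5p: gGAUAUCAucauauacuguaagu
The white-cell miRNAs are:
rno-miR-142-5p: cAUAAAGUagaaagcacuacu
rno-miR-142-3p: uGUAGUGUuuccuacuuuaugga
rno-miR-223-3p: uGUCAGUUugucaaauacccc
rno-miR-223-5p: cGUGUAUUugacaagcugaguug
All 8 seeds differ, and 0 other mature miRNAs among the 693 rat names in the RefSeq table have the same 7 bases as any of them. Bases 2 to 7 of miR-144-3p, without base 8, are also found in miR-101a-3p and miR-101b-3p. In the RefSeq gene order of GRCr8, Mir144 and Mir451a are immediate neighbours, which is the arrangement behind their shared transcript; the files' own build was named as rn5, so no coordinates are given. The hairpins of miR-142 and miR-451 are printed with their annotated arms in capitals, because the first gave reads from both arms and the second almost only from its 5′ arm.
Mir142 hairpin: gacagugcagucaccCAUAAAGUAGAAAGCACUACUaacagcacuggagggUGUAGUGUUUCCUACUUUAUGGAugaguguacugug
Mir451a hairpin: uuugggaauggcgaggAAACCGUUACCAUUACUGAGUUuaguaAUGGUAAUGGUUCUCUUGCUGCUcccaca

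The authors deposited an estimated read count per mature miRNA and rat, not scaled to library size. Library totals ranged from 2243413 to 4917928 in vehicle rats and from 1960704 to 3598771 in ethanol rats, and 3 counts, taken as the smallest detectable amount, corresponded to between 0.610 and 1.53 CPM (counts in a library of 1000000). This limit reflects counting error alone. Together the 10 members took between 0.0816% and 0.146% of the counts of a library. The neuronal markers miR-124-3p, miR-9a-5p, miR-128-3p and miR-138-5p were read in every library, at a summed level between 30042 and 38212 CPM. Of the members, 7 passed the removal of rarely read miRNAs (fewer than 10 reads in 10 or more libraries), as did 420 of all 753. The 3 that did not pass were miR-451-3p, with 0 to 3 reads per library, miR-223-5p, with 0 to 4, and miR-150-3p, with 0 reads in all 12. CPM values were scaled with TMM factors, a single factor per library, which does not make the composition of the libraries equal. Levels of different miRNAs are compared below as CPM, a share of reads that also depends on how well each miRNA is ligated and amplified.

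The most abundant member was miR-150-5p, at 541 ± 54.2 CPM (SD, n = 12 rats), followed by miR-142-5p at 310.5 ± 46.9 and miR-451-5p at 116 ± 53.4. The ranges of these 3 over rats did not overlap with one another. Next came miR-144-3p at 45.9 ± 19.5 CPM, miR-142-3p at 18.5 ± 2.24, miR-144-5p at 13.8 ± 4.06 and miR-223-3p at 7.25 ± 3.38. Within a library miR-451-5p was above miR-144-3p in 12 of 12 rats and miR-144-3p was above miR-142-3p in 12 of 12, although their ranges overlapped between rats. Among the tested members, miR-142-3p and miR-144-5p were the neighbours in this order that were not separated in every library, in that order in 10 of 12. Of the rarely read members, miR-223-5p was above miR-451-3p in 5 of 12 libraries, with ties among the rest, and miR-451-3p was above miR-150-3p in 7 of 12. White-cell members, grouped by hairpin and not by a measured cell of origin, held most of the members' reads. Their sum over arms was 855 ± 50.3 CPM in the vehicle group (SD over 4 libraries) and 890 ± 110 in the ethanol group (SD over 8), against 179 ± 40.7 and 174.5 ± 90.9 for the red-cell members. These sums carry no test.

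The red-cell members varied widely between rats. Expression of miR-451-5p was 116, 80.9, 123 and 164 CPM in vehicle rats 9, 10, 19 and 20, and in the 8 ethanol rats it ran from 33.0 to 205 with a median of 129.5. Ethanol rats 15, 7 and 23 were the lowest of all 12, at 33.0, 47.7 and 50.5 CPM, and ethanol rats 3 and 16 were the highest, at 205 and 169, so that the vehicle rats lay within the ethanol range. The difference between the lowest and the highest rat was 6.23-fold. For miR-144-3p, the values were 35.3, 37.0, 51.7 and 51.3 CPM in vehicle rats 9, 10, 19 and 20, and from 20.9 to 84.8 with a median of 48.95 in ethanol rats. The same 3 ethanol rats, 15, 7 and 23, were again the lowest, at 20.9, 21.5 and 23.6 CPM, and rat 3 was again the highest. The passenger arm of this hairpin, miR-144-5p, was 12.9, 14.9, 13.7 and 13.8 CPM in vehicle rats 9, 10, 19 and 20, a narrow band, and from 5.77 to 19.0 with a median of 15.6 in ethanol rats. Of the 8 ethanol rats, 3 lay below and 5 above every vehicle rat, a pattern singled out after its values were seen; all 8 ethanol libraries lay outside the vehicle range, on either side, for 2.14% of the retained miRNAs.

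**Figure D1:**
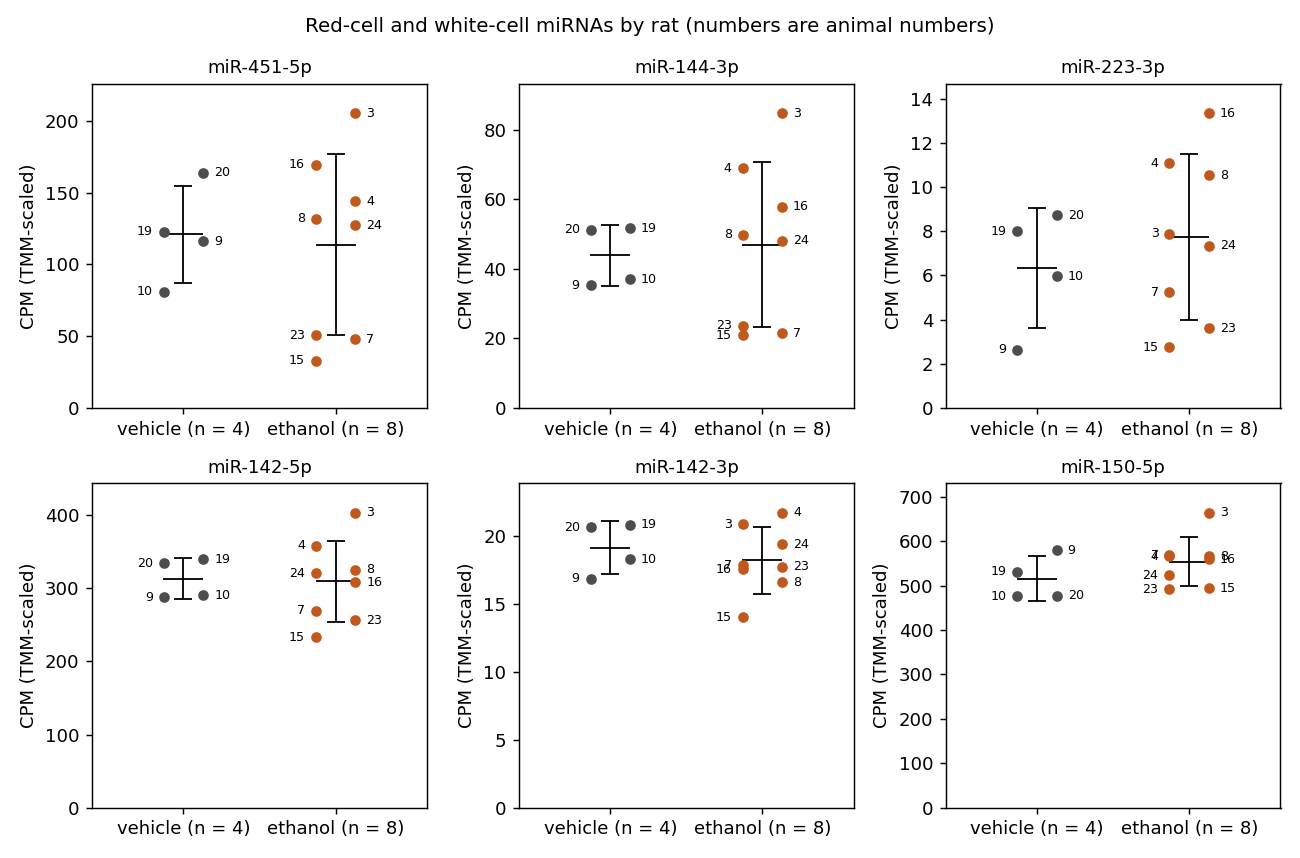
TMM-scaled CPM (y axis, linear from 0) of 6 members in each rat, vehicle (grey, n = 4) and ethanol (orange, n = 8); points carry animal numbers, and the bar with whiskers is the mean ± SD. Ethanol rats 7, 15 and 23 sit lowest for miR-451-5p, miR-144-3p and miR-142-5p, while miR-150-5p stays between 475 and 664 CPM in all 12 rats.

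Among the white-cell members, both arms of miR-142 and miR-150-5p spanned less than the tested red-cell members, and miR-223-3p did not. Expression of miR-142-5p was 288, 290, 340 and 334 CPM in vehicle rats 9, 10, 19 and 20, and from 233 to 403 with a median of 314 in ethanol rats. The groups overlapped, and ethanol rats 15, 23 and 7 were once more the lowest and rat 3 the highest. The other arm, miR-142-3p, was 16.8, 18.3, 20.8 and 20.6 CPM in vehicle rats 9, 10, 19 and 20, and from 14.01 to 21.7 with a median of 17.8 in ethanol rats. For the lymphocyte miRNA miR-150-5p, the vehicle rats 9, 10, 19 and 20 had 579, 475, 531 and 477 CPM, and the ethanol rats 492 to 664 with a median of 563. The highest of these was again rat 3, and 7 of the 8 ethanol rats lay within the vehicle range. The myeloid miRNA miR-223-3p was low and uneven, at 2.64, 5.96, 7.99 and 8.72 CPM in vehicle rats 9, 10, 19 and 20 and from 2.75 to 13.3 with a median of 7.61 in ethanol rats. These levels rest on 8 to 41 reads per library.

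The biological coefficient of variation that edgeR fitted within groups, which leaves out counting error, was 49.0% for miR-451-5p, 42.1% for miR-223-3p, 40.5% for miR-144-3p and 26.4% for miR-144-5p. It was 18.2% for miR-142-5p, 13.8% for miR-150-5p and 10.4% for miR-142-3p, against a median of 16.1% over the 420 retained miRNAs. In the order of all 420 from most to least variable, miR-451-5p was at rank 21, miR-223-3p at 34 and miR-144-3p at 37, while miR-150-5p was at 297 and miR-142-3p at 407. For all 7 tested members the SD of log2 CPM was larger in ethanol than in vehicle rats, as it was for 63.8% of the retained miRNAs. For miR-451-5p these SDs were 0.98 and 0.42 on the log2 scale; the difference in spread was not tested.

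No effect of ethanol on these miRNAs was detected. Of the 7 members tested, 0 had an adjusted p under 0.05 by edgeR (background over the 420 retained miRNAs, 0%), and 0 had an unadjusted p under 0.05, against 17 of 420 or 4.05%. The count with an adjusted p under 0.05 among all retained miRNAs was 1 by DESeq2's Wald test and 0 by limma-trend, and none of these calls was a member. In the fit, 4 members were lower and 3 higher after ethanol, with a median log2 fold change of -0.00; over all retained miRNAs 227 were lower and 193 higher, with a median of -0.02. The groups of 0 members failed to overlap, which was so for 0.238% of the retained miRNAs. With 4 rats against 8, an exact permutation p (two-sided, 495 splits) cannot fall below 0.00202.

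The precision of this result differed among the members. The log2 fold change of miR-451-5p, ethanol over vehicle, was -0.09 (standard error 0.43), with a 95% interval from -1.05 to 0.86, which spans 0.482-fold to 1.82-fold. Its mean log2 CPM differed by -0.30 (exact permutation p = 0.564). That of miR-144-3p was 0.09 (standard error 0.36), from -0.71 to 0.88, and its mean log2 CPM differed by -0.06 in the opposite direction (exact permutation p = 0.885). For miR-144-5p it was -0.00 (standard error 0.26), from -0.58 to 0.58. The arms of miR-142 and miR-150-5p had narrower intervals. The log2 fold change of miR-142-5p was -0.02 (standard error 0.13), from -0.32 to 0.28, and that of miR-142-3p was -0.09 (standard error 0.12), from -0.35 to 0.18. For miR-150-5p it was 0.10 (standard error 0.09), from -0.10 to 0.30, which had the lowest unadjusted p of the members (0.272; adjusted p = 0.971 by edgeR's quasi-likelihood test). For miR-223-3p it was 0.22 (standard error 0.40), from -0.68 to 1.11, and without vehicle rat 9, its lowest library, the value was -0.01. Without vehicle rat 20 the log2 fold change of miR-451-5p turned to 0.13. It also turned positive without ethanol rat 7, 15 or 23, at 0.02, 0.05 and 0.02.

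**Figure D2:**
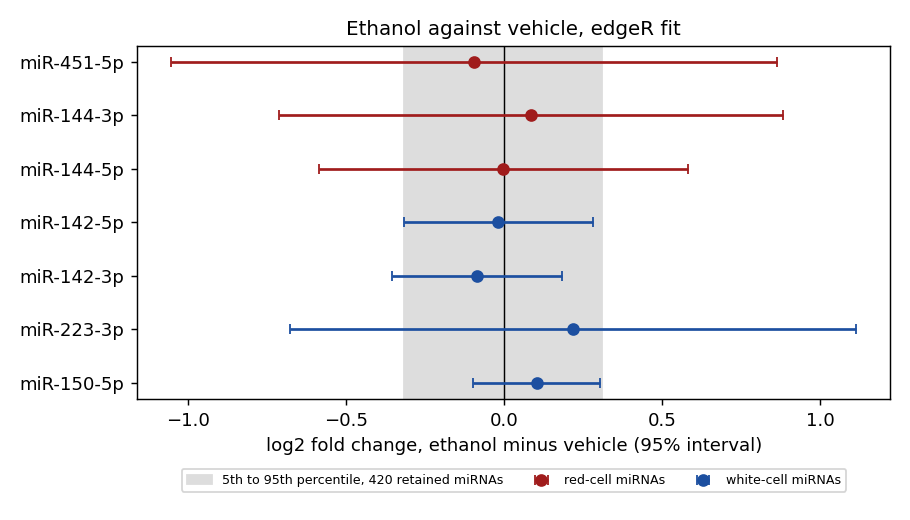
Log2 fold change, ethanol minus vehicle (x axis), of the 7 members that were tested, with 95% intervals from the edgeR standard errors; red marks red-cell and blue white-cell miRNAs, and the grey band spans the 5th to 95th percentile of all 420 retained miRNAs (-0.32 to 0.31). Every interval includes 0, and those of miR-451-5p, miR-144-3p and miR-223-3p are the widest.

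Red-cell members were then set against white-cell members within each library, which needs no scaling. White-cell reads exceeded red-cell reads by 5.40-, 5.93-, 4.78- and 3.66-fold in vehicle rats 9, 10, 19 and 20. In ethanol rats the ratio ran from 3.54 to 12.2 with a median of 4.60, and the 3 rats with the least miR-451-5p, 15, 7 and 23, had the highest ratios, at 12.2, 11.5 and 8.99. The other 5 ethanol rats lay between 3.54 and 4.63. Because miR-451-5p made up most of the red-cell sum, the high ratios of rats 15, 7 and 23 are not a separate observation from their low miR-451-5p. The red-cell sum spanned 5.05-fold over the 12 rats and the white-cell sum 1.47-fold. Between 56.7% and 66.4% of the white-cell sum was miR-150-5p, and the white-cell member miR-223-3p alone spanned 5.05-fold. As a single pair, the log2 ratio of miR-451-5p to miR-142-3p was 2.58 ± 0.36 for vehicle (SD, n = 4) and 2.36 ± 0.86 for ethanol (SD, n = 8), a difference of -0.22 that was within the spread between rats (exact permutation p = 0.614, adjusted over 4 ratios 0.614). The log2 ratio of miR-150-5p to miR-142-3p was 4.70 ± 0.24 for vehicle and 4.88 ± 0.16 for ethanol, 0.18 higher after ethanol (exact permutation p = 0.143, adjusted 0.4). Without vehicle rat 9 this difference was 0.29 (exact permutation, adjusted p = 0.097), and without vehicle rat 20 it was 0.11. That of miR-223-3p to miR-142-3p was 0.30 higher (exact permutation p = 0.444, adjusted 0.593), and 0.03 higher without vehicle rat 9. None of these 3 ratios had a p under 0.05.

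**Figure D3:**
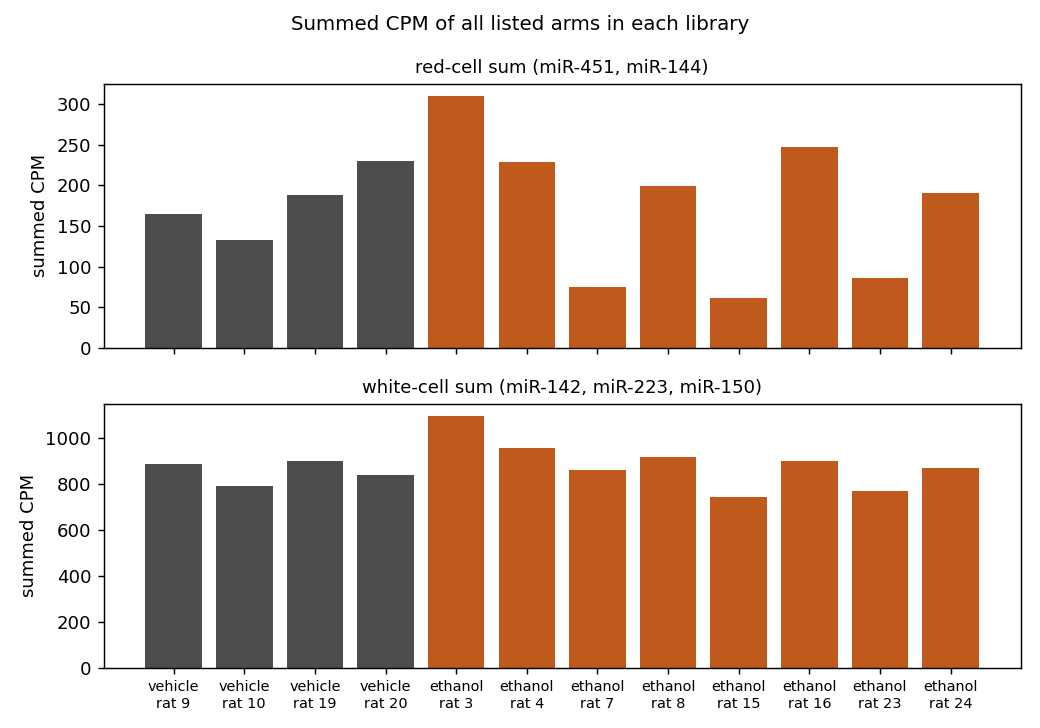
Summed CPM (y axes, linear from 0) of all listed arms of the red-cell hairpins (top) and white-cell hairpins (bottom) in each library, vehicle in grey and ethanol in orange. The red-cell bars of ethanol rats 7, 15 and 23, at 75.0, 61.2 and 85.7 CPM, are below all others, while the white-cell bars stay between 745 and 1096 CPM.

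The neighbouring products miR-451-5p and miR-144-3p kept a fairly even proportion. Their log2 ratio was 1.43 ± 0.30 for vehicle (SD, n = 4) and 1.19 ± 0.28 for ethanol (SD, n = 8), a difference of -0.24 (exact permutation p = 0.2, adjusted 0.4). Over the 12 rats this ratio spanned 2.08-fold, from ethanol rat 15 to vehicle rat 9, whereas miR-451-5p itself spanned 6.23-fold. Within the red-cell sum, miR-451-5p held between 53.8% and 71.4% of the reads.

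Across the 12 libraries the members were compared in 15 pairs of their major arms and miR-142-3p, by Pearson's r and Spearman's rho of log2 CPM, each with 100000 permutations and adjustment over the 15 pairs. The 2 red-cell miRNAs moved together, with r = 0.95 (permutation p = 2e-05, adjusted 0.00015) and rho = 0.92 (permutation p = 0.0001, adjusted 0.00075), and r was 0.91 without the 2 libraries farthest from the median of miR-451-5p, ethanol rats 15 and 7. Pairs across lineages were also correlated. For miR-144-3p and miR-142-5p, r was 0.95 (permutation p = 1e-05, which is the smallest that 100000 permutations can give, adjusted 0.00015) and rho 0.92 (permutation p = 7e-05, adjusted 0.00075), with r = 0.95 after the same 2 libraries were left out. For miR-451-5p and miR-142-5p, r was 0.90 (permutation p = 8e-05, adjusted 0.0004) and rho 0.83 (permutation p = 0.00161, adjusted 0.00773), and r was 0.84 without them. The slopes were unlike, since miR-142-5p spanned 1.73-fold over the rats in which miR-451-5p spanned 6.23-fold.

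The myeloid miRNA miR-223-3p was also correlated with the red-cell miRNAs, with r = 0.78 against miR-144-3p (permutation p = 0.00358, adjusted 0.0107) and rho = 0.81 (permutation p = 0.00206, adjusted 0.00773). Against miR-451-5p, r was 0.73 (permutation p = 0.0081, adjusted 0.0174) and rho 0.78 (permutation p = 0.0042, adjusted 0.0116). Without ethanol rats 15 and 7 these r values were 0.74 and 0.63. The 2 arms of miR-142 gave r = 0.81 (permutation p = 0.0014, adjusted 0.00525) and rho = 0.77 (permutation p = 0.00463, adjusted 0.0116), and r = 0.67 without ethanol rats 15 and 3. In each of its 5 pairs the lymphocyte miRNA miR-150-5p had an adjusted p above 0.05, with r = 0.46 against miR-451-5p (permutation p = 0.128, adjusted 0.148; rho = 0.29, permutation p = 0.366, adjusted 0.436), r = 0.55 against miR-142-5p (permutation p = 0.0632, adjusted 0.0861; rho = 0.29, permutation p = 0.366, adjusted 0.436) and r = 0.22 against miR-142-3p (permutation p = 0.495, adjusted 0.495; rho = 0.03, permutation p = 0.939, adjusted 0.939). Without the 2 libraries farthest from the median, the r with miR-451-5p was 0.60, that with miR-142-5p 0.13 and that with miR-142-3p -0.03. In the ethanol libraries alone, the r of miR-150-5p with miR-451-5p was 0.70 (permutation p = 0.0485, adjusted 0.0661) and that with miR-142-5p was 0.83 (permutation p = 0.0109, adjusted 0.0326). Whether miR-150-5p correlated less than the other members was not tested.

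**Figure D4:**
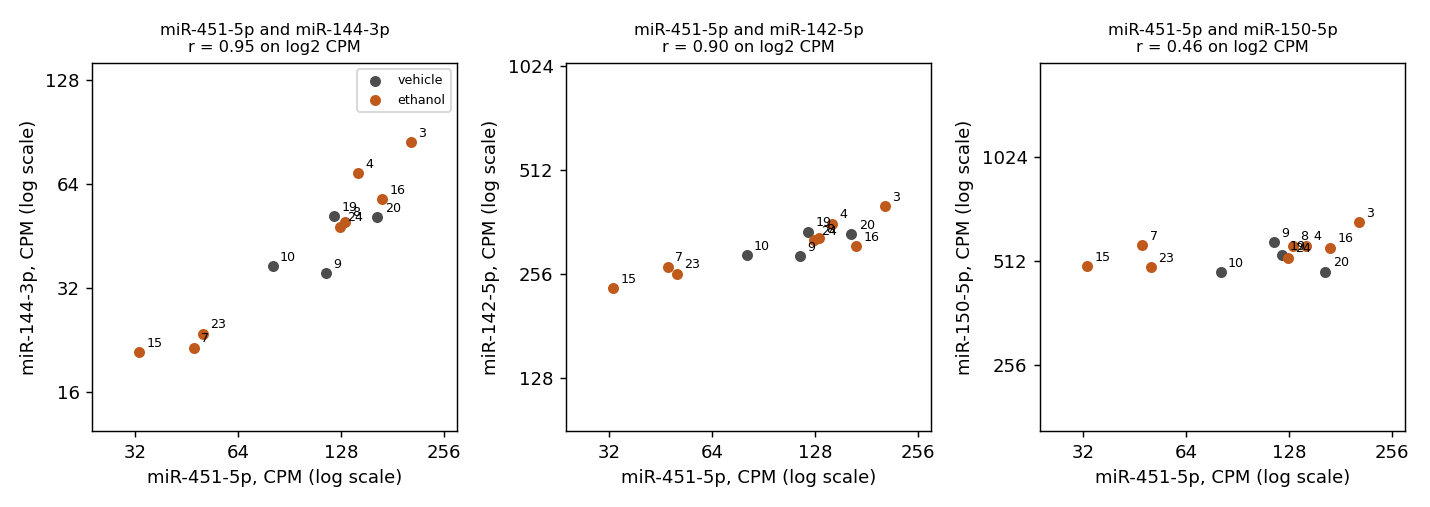
CPM of miR-144-3p, miR-142-5p and miR-150-5p (y axes) against miR-451-5p (x axis) in the 12 libraries, both axes on a log scale of equal span, with vehicle rats in grey and ethanol rats in orange. Points rise steeply for miR-144-3p (r = 0.95), shallowly for miR-142-5p (r = 0.90) and spread without a clear slope for miR-150-5p (r = 0.46); ethanol rats 7, 15 and 23 lie at the left.

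Of the 15 pairs, 9 had an adjusted p under 0.05 by r and 8 by rho. The share of such pairs among all 420 retained miRNAs was not computed, so this count does not set the members apart from other miRNAs. Ethanol rats 7, 15 and 23 hold the low end of miR-451-5p, and leaving them out narrows its range and lowers n, both of which act on r and on its p. Among the 9 other libraries, a set chosen after the values were seen, 1 pair kept an adjusted p under 0.05, miR-144-3p and miR-142-5p, with r = 0.92 (permutation p = 0.00082, adjusted 0.0123; rho = 0.83, permutation p = 0.00832, adjusted 0.0674). For miR-451-5p and miR-144-3p, r was then 0.83 (permutation p = 0.00785, adjusted 0.0589), and for miR-451-5p and miR-150-5p it was 0.59 (permutation p = 0.0905, adjusted 0.17). Within the 8 ethanol libraries, r for miR-451-5p and miR-144-3p was 0.97 (permutation p = 4e-04, adjusted 0.00383), and 4 vehicle libraries are too few for a value of their own. All values of a library share its TMM factor and its other RNA. Against the log2 library total, r was 0.04 for miR-451-5p (permutation p = 0.913; rho = -0.09, permutation p = 0.786) and -0.52 for miR-150-5p (permutation p = 0.0841; rho = -0.50, permutation p = 0.104), and after adjustment over 6 members the lowest p was 0.505 for r and 0.621 for rho. Without the 2 libraries whose totals were farthest from the median, the r of miR-451-5p was -0.25 and that of miR-150-5p -0.48.

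Outside the members, the miRNAs with the pattern most like miR-451-5p across the 12 libraries, by Pearson's r of log2 CPM over 413 miRNAs, were miR-148a-3p (r = 0.85), miR-199a-3p (0.85), miR-199a-5p (0.84), miR-182 (0.84) and miR-183-5p (0.80). All 5 values were below those of miR-144-3p and miR-142-5p, which ranked first and second among all 419 others. They were above those of miR-223-3p at rank 14 (r = 0.73), miR-142-3p at rank 19 (0.67) and miR-150-5p at rank 64 (0.46). For miR-142-3p the list was miR-126a-5p (r = 0.80), let-7c-2-3p and let-7a-1-3p (both 0.78, with the same count in every library), miR-199a-3p (0.76) and miR-199a-5p (0.72). Among all 419 others, miR-142-5p was at rank 1 for miR-142-3p (r = 0.81), miR-144-3p at 7, miR-451-5p at 9, miR-223-3p at 16 and miR-150-5p at 102. The values of the miRNAs outside the members are the highest of many and carry no test.

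Markers of other cell types were examined beside these differences. The vessel list (miR-126a-3p and miR-126a-5p of endothelium, miR-143-3p and miR-145-5p of the vessel wall; 4 of 4 tested) summed to between 38690 and 48386 CPM in vehicle rats and to between 32606 and 67959 in ethanol rats. Its lowest sums were in ethanol rats 23 and 15 (32606 and 33328 CPM), both low in red-cell miRNAs, and that of ethanol rat 7, also low in them, was 51952. Ethanol rat 3, the highest in red-cell miRNAs, had 67057. Most of this sum was miR-143-3p. Taken singly over the 12 libraries, the 4 vessel miRNAs had r between 0.62 and 0.78 with miR-451-5p and between 0.81 and 0.89 with miR-142-5p on the log2 CPM scale, highest for miR-126a-3p in both, values given as a description with no test. The choroid plexus list (miR-204-5p, miR-211-5p and miR-448-3p; 3 of 3 tested, none at 0) ran from 28981 to 50272 CPM in vehicle rats and from 16517 to 70888 in ethanol rats, and its 2 lowest sums came from rats at opposite ends of the red-cell range, ethanol rats 3 and 15 (16517 and 17579). The muscle list (miR-206-3p, miR-133b-3p, miR-133a-3p and miR-1-3p; 2 of 4 tested) ran from 103 to 1311 CPM in vehicle rats and from 84.7 to 1195 in ethanol rats. It was at 1147, 1311, 1279 and 1195 CPM in vehicle rats 9, 19 and 20 and ethanol rat 16, and at or below 244 in the other 8 libraries. These 8 included ethanol rats 7, 15 and 23 (126, 102 and 84.7 CPM) and also ethanol rat 3 (207), the highest in red-cell miRNAs, and vehicle rat 10 (103); miR-1-3p and miR-206-3p, which were not tested, had 0 CPM in at least one library. The tested pair was lower in ethanol rats, with log2 fold changes of -1.99 for miR-133a-3p and -1.63 for miR-133b-3p. By edgeR the unadjusted p was 0.0166 for miR-133a-3p and 0.0511 for miR-133b-3p, and the adjusted p was 0.971 for both. On the log2 CPM scale, r with miR-451-5p was 0.54 for miR-133a-3p and 0.59 for miR-133b-3p, near the lower vessel values. It was between 0.28 and 0.45 for the 3 choroid plexus miRNAs and between -0.46 and 0.19 for the neuronal markers. With miR-142-5p, r was 0.34 for both of the tested muscle miRNAs and between 0.11 and 0.27 for the choroid plexus miRNAs. These values also carry no test. The part of vessel, choroid plexus or muscle RNA in the red-cell differences was not tested.

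Among other miRNAs of blood and immune cells, 0 of 5 tested passed by edgeR at an adjusted p of 0.05, and 1 had an unadjusted p under 0.05. That was miR-146a-5p, a brake on Toll-like receptor signalling, at 62.6 ± 4.96 CPM for vehicle (SD, n = 4) and 76.3 ± 12.2 for ethanol (SD, n = 8; log2 fold change 0.28, standard error 0.13, adjusted p = 0.971 by edgeR). The others were miR-155-5p, induced in activated macrophages and lymphocytes, at 11.1 ± 2.93 and 10.1 ± 4.26 CPM, miR-146b-5p, miR-342-3p and miR-21-5p, with 4 of the 5 higher and 1 lower and a median log2 fold change of 0.04. A further list held miR-16-5p, miR-92a-3p, miR-25-3p and miR-363-3p, which are abundant in red cells but made in many tissues. Their sum was 6356 to 8028 CPM in vehicle and 6700 to 8304 in ethanol rats, most of it miR-16-5p, and in ethanol rats 7, 15 and 23, which were low in miR-451-5p, it was 7130, 7772 and 8304. As a description over the 12 libraries with no test, the r of log2 CPM with miR-451-5p was -0.48 for miR-16-5p, -0.39 for miR-92a-3p, -0.01 for miR-25-3p and 0.64 for miR-363-3p. In the immune list this r was also mixed in sign. It was 0.77 for miR-155-5p, 0.35 for miR-342-3p, 0.26 for miR-146a-5p, -0.18 for miR-21-5p and -0.35 for miR-146b-5p. All 4 miRNAs of the further list had a positive log2 fold change, with a median of 0.20, and 0 of 4 passed at an adjusted or an unadjusted p of 0.05. In neither list did a miRNA have an adjusted p under 0.05. The group means of miR-92a-3p were 516 ± 88.9 CPM for vehicle (SD, n = 4) and 637 ± 107 for ethanol (SD, n = 8). Its log2 fold change was 0.30 (standard error 0.14, adjusted p = 0.971 by edgeR).

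Use of the 2 arms was compared as the share of each hairpin's reads on the less read arm. For miR-142, 682 reads came from the 3p arm and 11370 from the 5p arm over all libraries, so the 3p arm held 5.66%. This share was 5.53%, 5.93%, 5.77% and 5.82% in vehicle rats 9, 10, 19 and 20, and 4.85% to 6.47% in ethanol rats, where the group means differed by -0.15 percentage points (exact permutation p = 0.638, adjusted over 4 hairpins 0.848). For miR-144, the 5p arm held 23.1% of the reads, with a vehicle mean of 24.4% ± 3.91 (SD, n = 4) and an ethanol mean of 23.8% ± 4.59 (SD, n = 8; exact permutation p = 0.848, adjusted 0.848). Neither hairpin showed a shift between its arms larger than the spread between rats.

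For miR-451, 11 of its reads carried the 3p sequence and 4282 the 5p sequence, a 3p share of 0.256%; its vehicle mean was 0.313% ± 0.223 (SD, n = 4) and its ethanol mean 0.147% ± 0.167 (SD, n = 8; exact permutation p = 0.182, adjusted 0.727). As background, the Ago2 cut of this hairpin leaves the 5p strand as the mature miRNA. For miR-223 the 5p arm gave 19 reads against 264, or 6.71% (exact permutation p = 0.501, adjusted 0.848), and its direction turned without vehicle rat 9. For miR-150, 0 of 19555 reads came from the 3p arm, which allows a share of up to 0.0153% at 3 counts.

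**Figure D5:**
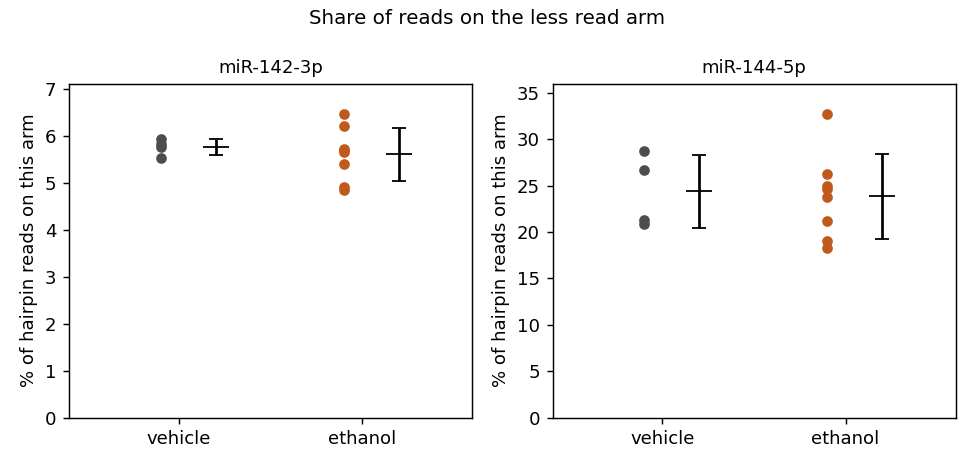
Share of hairpin reads on the less read arm (y axes, percent, linear from 0) for miR-142-3p (left) and miR-144-5p (right), with 1 point per rat, vehicle in grey (n = 4) and ethanol in orange (n = 8), and the mean ± SD beside the points. The shares of both groups overlap, between 4.85% and 6.47% for miR-142-3p and between 18.3% and 32.7% for miR-144-5p.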

How the data were processed

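Hippocampal small RNA from 12 rats was prepared with a TruSeq small RNA kit and read for 37 cycles. The authors deposited expected counts (estimated counts) per mature miRNA, unscaled. The submitters' processing notes name cutadapt, Partek and rn5 without roles; counting method and miRNA annotation are not given in the sources used here. In each library 80.2% to 83.4% of values were whole; among the members only miR-150-5p was fractional, in 1 library. Counts were rounded.

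miRNAs below 10 reads in at least 10 of the 12 libraries were removed; the study set the same numbers over more rats, so the share of libraries differs. The 420 kept were fitted together in edgeR 4.0.16 (R 4.3.3) by the quasi-likelihood test with TMM factors and Benjamini-Hochberg adjustment, after the code was tested on simulated counts. DESeq2 1.42.0 and limma 3.58.1 were alternatives. Intervals (95%) use 10 degrees of freedom. Log2 CPM had a prior count of 2. Single values were tested by exact permutation of the 4 and 8 libraries (SciPy 1.17.1). All 66 library pairs were distinct (chi-square over its degrees of freedom, 38.5 or more). No source says which rats shared a sequencing run, so no batch was examined. Separate rats are the replicates.

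The members and lists were chosen with earlier results of these data known. Named miRNAs are all listed arms of the 6 stems, the marker lists, and the 5 miRNAs most like miR-451-5p and miR-142-3p. The relations to library total and the 9-library correlations were chosen after seeing the data.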

Additional observations from a re-analysis of the deposited data

How the results depend on the processing

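No paired analysis was possible because no animal number occurs in both groups. Over 25 alternative fits, 0 members reached an unadjusted or adjusted p under 0.05, and miR-150-5p was higher after ethanol in all 25; the other directions were those of values near 0 and turned as follows, with causes not tested. The log2 fold change of miR-144-5p became 0.0072 with DESeq2-style size factors, 0.0078 without a filter, 0.027 with at least 10 reads required in at least 10 libraries, 0.019 with filterByExpr, 0.0076 by DESeq2, 0.11 after down-sampling and 0.0011 without rounding. That of miR-142-5p became 0.013 and 0.0047 under the 2 stricter filters. That of miR-144-3p became -0.057 by limma-trend and -0.0034 with library total as covariate, and that of miR-142-3p 0.11 after down-sampling. Over all miRNAs, calls were 1 by DESeq2, and 11 had an unadjusted p under 0.05 with library total as covariate. Leaving out each rat in turn gave 0 to 3 calls (3 without ethanol rat 16) and 5 to 24 at an unadjusted p under 0.05, with log2 fold changes of -0.24 to 0.13 for miR-451-5p, -0.049 to 0.21 for miR-144-3p, -0.084 to 0.10 for miR-144-5p, -0.053 to 0.052 for miR-142-5p and -0.0073 to 0.45 for miR-223-3p. The arm share difference ran from -1.81 to 0.89 percentage points for miR-144-5p and from -5.90 to 0.77 for miR-223-5p. The 4 log2 ratios kept their direction in all 14 alternatives each, but leaving out single rats moved them from -0.38 to -0.057 (miR-451-5p to miR-142-3p, without vehicle rat 10 and ethanol rat 15), from -0.35 to -0.15 (miR-451-5p to miR-144-3p, without vehicle rats 10 and 9), from 0.031 to 0.44 (miR-223-3p to miR-142-3p, without vehicle rats 9 and 20) and from 0.11 to 0.29 (miR-150-5p to miR-142-3p, without vehicle rats 20 and 9).

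In the ethanol libraries alone, r was 0.69 for miR-451-5p and miR-142-3p, 0.70 for miR-144-3p and miR-142-3p and 0.76 for miR-142-5p and miR-223-3p, which lost their calls, and 0.83 for miR-142-5p and miR-150-5p, which gained one. In the 9 libraries left after removing ethanol rats 7, 15 and 23, chosen after seeing the data, miR-451-5p lost its calls with miR-144-3p (r = 0.83), miR-142-5p (0.72), miR-142-3p (0.35) and miR-223-3p (0.47), miR-144-3p with miR-142-3p (0.61) and miR-223-3p (0.64), and miR-142-5p with miR-142-3p (0.72) and miR-223-3p (0.44); r of miR-142-3p and miR-150-5p was -0.0060. With 8 to 41 reads per library, miR-223-3p is the tested member most limited by depth.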
